A study of Nannochloropsis oceanica with 12 samples.

Results

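Chromosome ends are where telomeric repeats meet the first genes, and in several well-studied organisms, budding yeast among them, the chromatin next to telomeres carries histone marks at other levels than the chromosome arms. Lysine lactylation is the attachment of a lactyl group to the side chain of lysine, found on histones and on other proteins, and it has been described as a mark that follows the supply of lactate. How it is arranged along algal chromosomes was examined here for the 428 lactyllysine peaks nearest the chromosome ends of Nannochloropsis oceanica, out of 5375 listed peaks (7.96%). The true lengths of the chromosomes were not used here. For each of the 30 chromosomes the lowest start and the highest end of any listed peak were taken as the ends of the covered span, and a peak counted as an end peak when its midpoint lay within 50000 bp of either. The rule uses positions only and no measured level. The other 4947 peaks are called interior peaks.

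The alga is strain IMET1, a unicellular marine species that accumulates oil when nitrogen is scarce. Log-phase cells were washed and moved, at an OD750 of 2.5, to medium lacking nitrogen (deprived) or containing it (replete) for 72 hours in continuous light, and chromatin was precipitated with an antibody against L-lactyllysine. The series has 12 libraries, of which 3 deprived and 3 replete ChIP libraries underlie the deposited table. The 6 libraries made without antibody, 3 per condition, were not analysed here. All groups share the strain and the transfer step. They also share a culture volume of 800 mL, 25 °C, light of 50 µmol photons per square metre and second, 1.5% CO2 and 1% formaldehyde. The treatment protocol in the labels describes cultures grown in triplicate, but no label ties a library to a culture of its own, so p-values below measure only the spread between these libraries, which may be technical.

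The table lists peaks of 401 bp with an FDR up to 0.05 for deprived against replete libraries, 99.7% of the 5389 that its FDR values imply were tested. Its group means were resolved into whole reads per library, named A, B and C in each condition with no link to the replicate numbers of the labels. Where 3 values are given for a condition, they stand in this order. The deprived libraries held 1620064, 1371356 and 1351261 reads in all listed peaks, and the replete libraries held 89564, 30954 and 19082. Levels below are in normalised reads per peak, meaning reads after the authors' scaling between libraries, unless reads are named. The total depth of the libraries is unknown here. Whether control reads had been subtracted is not known.

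The span ends stand in for chromosome ends to a differing degree. The first listed peak began at position 295 on the chromosome where it lay nearest to the first base and at 111590 on chromosome 18, with a median of 6161 over the 30 chromosomes. It began before position 1000 on 10 chromosomes and beyond 40000 on 3, namely chromosomes 1, 18 and 30. The distance from the last listed peak to the far chromosome end was not analysed. The spans ran from 395797 bp on chromosome 30 to 1657516 bp on chromosome 2, so that end peaks made up 22.0% of the listed peaks on the shortest and 3.53% on the longest.

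Peaks were sparser near the ends. The windows at the 60 ends cover 9.94% of the total span and hold 7.96% of the peaks, a density of 143 peaks per Mb near ends against 182 per Mb in the interior. Each end of a span is placed at a peak by construction, and without those 60 outermost peaks the density near ends was 123 per Mb. Neighbouring end peaks lay a median of 5925.5 bp apart from start to start (quartiles 3793 and 9259 bp, 368 pairs), against 4551 bp for interior pairs (quartiles 3052 and 6688 bp, 4917 pairs). These distances are descriptions of 1 set of positions shared by all libraries, and no test was applied to them.

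Wide spacings were more frequent near ends. Pairs more than 10000 bp apart were 20.9% of end pairs (77 pairs) and 8.60% of interior pairs (423 pairs), while pairs closer than 2000 bp were 4.35% of end pairs (16 pairs) and 5.98% of interior pairs (294 pairs). The 60 pairs that straddled the edge of a window were left out of both sets and had a median spacing of 10305 bp, since a long spacing is more likely to contain the edge than a short one. Counting them as end pairs widened the difference of medians to 1717.5 bp, against 1374.5 bp without them.

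**Figure D1:**
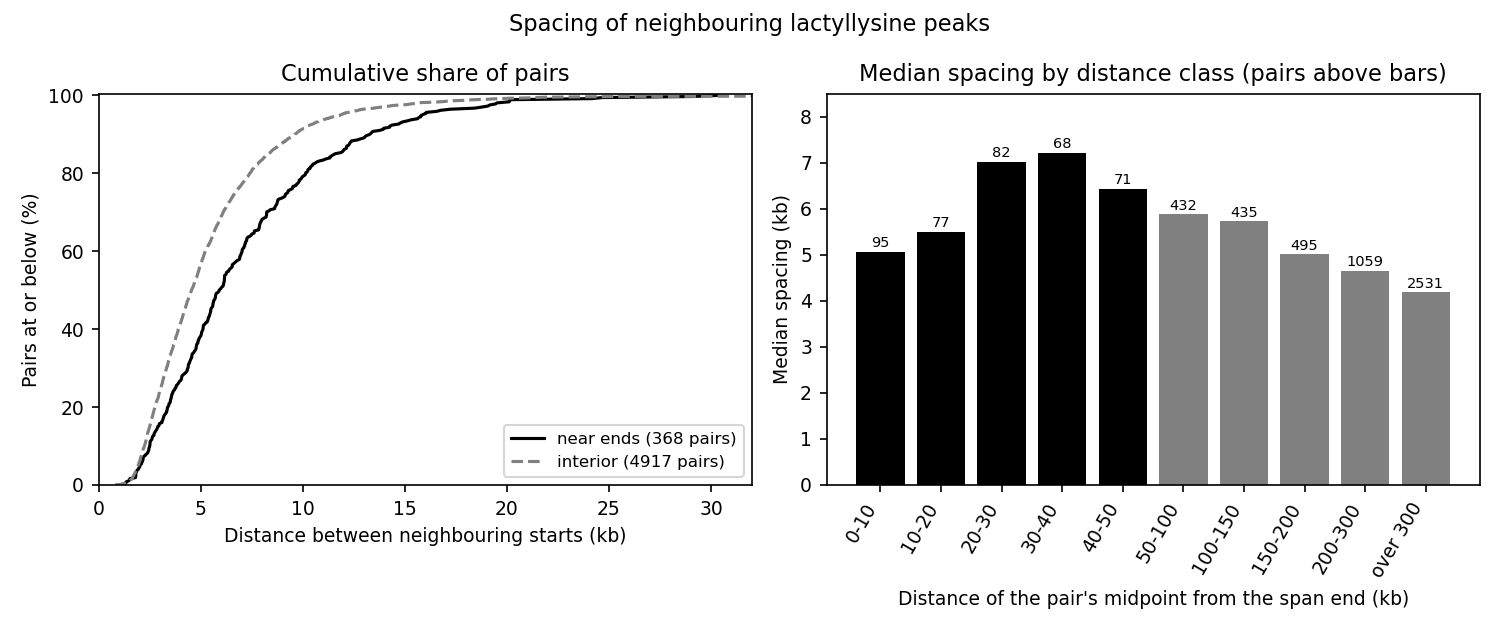
Left, cumulative share of neighbouring pairs (%) against the distance between their starts (kb) for 368 end pairs and 4917 interior pairs, where the end curve lies to the right of the interior curve over most of its length. Right, median spacing (kb) of all neighbouring pairs by the distance of the pair's midpoint from the span end, with black bars inside the windows and the number of pairs above each bar; the highest bars are those from 20 to 40 kb.

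The wider spacing was seen on most chromosomes. The median spacing of end pairs exceeded that of interior pairs on 26 of 30 chromosomes, with the largest ratio on chromosome 19 (9906 bp near its ends, 4952 bp in its interior). The 4 exceptions were chromosomes 3, 15, 23 and 27. On chromosome 3 end pairs were 3395 bp apart and interior pairs 4309 bp. Low-coordinate and high-coordinate ends had similar medians, 5651 bp over 186 pairs and 6143.5 bp over 182 pairs. At the 10 low-coordinate ends whose first peak began before position 1000 the median was 5292 bp over 64 pairs, which also lies above the interior value.

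Spacing did not change abruptly at the edge of the windows. By distance of the pair's midpoint from the span end, median spacing was 5062 bp up to 10 kb, 5497 bp from 10 to 20 kb, 7023.5 bp from 20 to 30 kb, 7206.5 bp from 30 to 40 kb and 6425 bp from 40 to 50 kb. Farther in it was 5874 bp from 50 to 100 kb, 5724 bp from 100 to 150 kb, 5013 bp from 150 to 200 kb, 4647 bp from 200 to 300 kb and 4186 bp beyond 300 kb. The deepest classes lack the shortest chromosomes, and interior spacing differed between chromosomes, for example 4171 bp on the longest, chromosome 2, and 5901 bp on the shortest, chromosome 30. The part of this mix in the decline was not tested. The outer classes favour short spacings, because the midpoint of a long spacing cannot lie close to the end. With a window of 25000 bp the difference of medians was 608.5 bp.

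The ends differed in how many peaks they held, from 3 to 10 with a median of 7. The low-coordinate end of chromosome 19 held the fewest, 3 peaks starting at 10840, 41109 and 51015, and its first 2 peaks, 30269 bp apart, were the most widely spaced neighbours at any end. These 3 peaks were strongly marked in deprived cells, at 372, 455 and 295 normalised reads. The high-coordinate ends of chromosomes 12 and 17 held 4 peaks each. At the other extreme, 6 ends held 10 peaks, among them both ends of chromosome 3. The closest neighbours at any end lay 1223 bp apart at the high-coordinate end of chromosome 21.

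**Figure D2:**
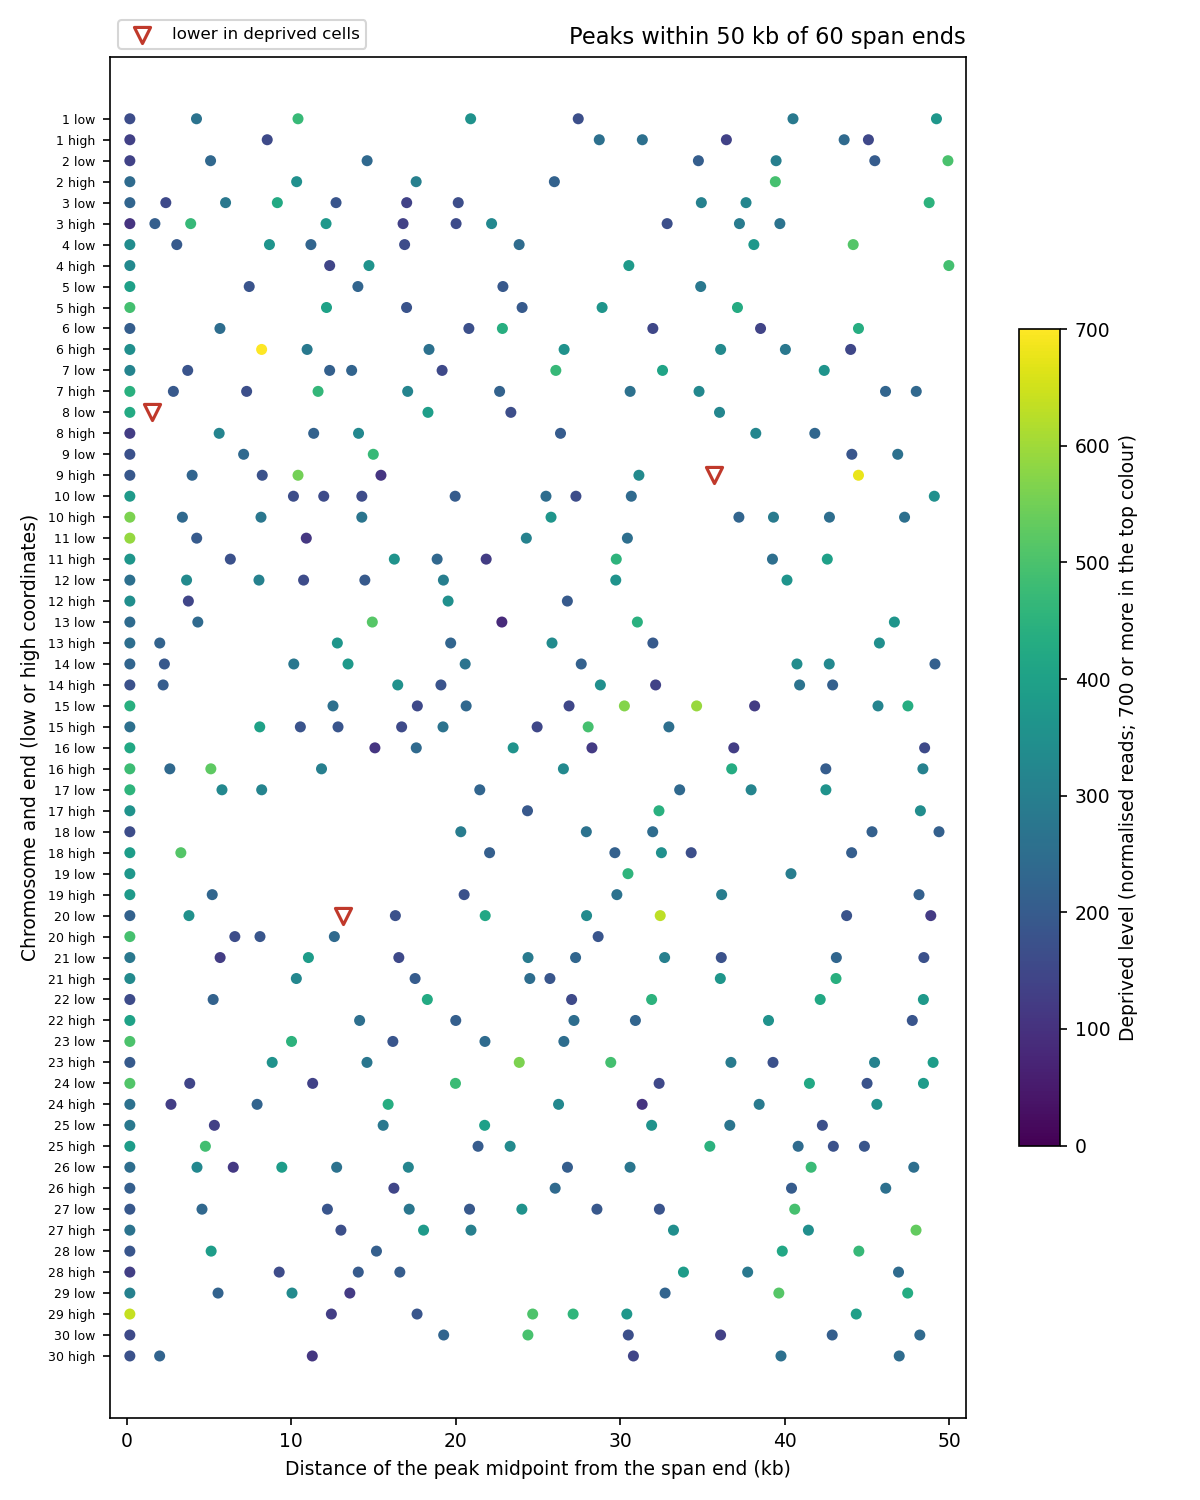
Every end peak placed by the distance of its midpoint from the span end (kb, horizontal axis) for each of the 60 ends (chromosome and low-coordinate or high-coordinate end, vertical axis). Colour gives the deprived level in normalised reads, and open triangles mark the 3 peaks that are lower in deprived cells; the column of points at the left edge is the outermost peak that defines each end.

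Although end peaks were sparser, on average they carried about as much lactyllysine signal in deprived cells as interior peaks. The end peaks had a median deprived level of 256 normalised reads (quartiles 190 and 359, range 3.39 to 1049), against 265 for interior peaks (quartiles 194 and 356, range 0 to 796). In deprived library A an end peak held 305 reads on average and an interior peak 301, a ratio of 1.01. In deprived library B both means were 255 reads and the ratio was 1.00. In deprived library C an end peak held 252 reads and an interior peak 251, also a ratio of 1.00. A ratio taken within 1 library does not depend on the scaling between libraries. The log2 ratio of end to interior averaged 0.0079 ± 0.0079 in deprived libraries (SD, n = 3). Its direction was not stable: it was -0.0013 without the strongest end peak, -0.013 without the 60 outermost peaks, -0.0055 as the median over chromosomes and -0.045 with a window of 25000 bp.

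In replete cells the mean signal per end peak was lower than per interior peak in each library. The shortfall was not shared by all distances from the end, nor limited to the windows. Mean replete levels were 5.84 normalised reads in the outermost peaks, 8.91 in the others up to 10 kb and 6.48 from 10 to 20 kb. From 20 kb they were 7.23, 8.86 and 6.21 per step of 10 kb. Interior peaks had 6.998 from 50 to 100 kb, 9.44 from 100 to 150 kb and 7.80 beyond 300 kb. Replete library A held 15.1 reads per end peak and 16.8 per interior peak, a ratio of 0.901. Replete library B held 5.02 reads per end peak and 5.82 per interior peak, a ratio of 0.863, and replete library C held 3.27 and 3.57, a ratio of 0.914. The log2 ratio averaged -0.16 ± 0.043 in replete libraries (SD, n = 3). Over all 6 libraries the log2 ratio averaged -0.078 ± 0.098 (SD), which an exact 2-sided sign-flip permutation test did not separate from 0 (p = 0.25), where the smallest p that 6 libraries allow is 0.031. Within 3 libraries of 1 condition no such test can go below 0.25.

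The end-to-interior ratio was at or just above 1 in 3 of 3 deprived libraries, with the reversals given above, and below 1 in 3 of 3 replete libraries. The difference, deprived minus replete, was 0.17 on the log2 scale, with an exact permutation p of 0.1 (2-sided), the smallest that 3 against 3 libraries can give. The comparison can thus not pass a threshold of 0.05. Replete reads in end peaks were few, 6480, 2150 and 1398 per library, and the 3 end peaks that are lower in deprived cells supplied 7.02%, 15.7% and 14.9% of them. Without any of the peaks listed as lower, the deprived ratios were 1.01, 0.9995 and 1.003, so that deprived library B lay below 1. The replete ratios were then 0.898, 0.858 and 0.953, and the difference was 0.15 (exact permutation p = 0.1).

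**Figure D3:**
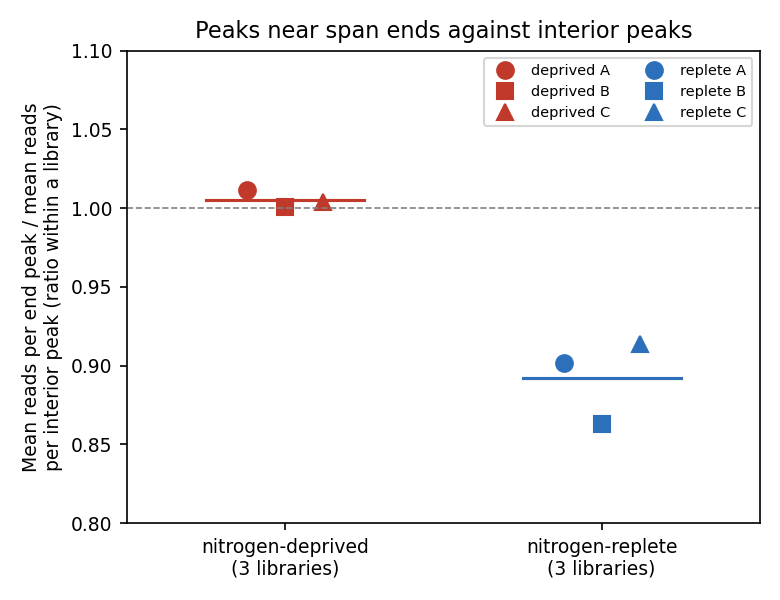
Ratio of mean reads per end peak to mean reads per interior peak within each library (vertical axis, no unit, starting at 0.8), with 3 deprived libraries at the left and 3 replete libraries at the right; horizontal bars are geometric means and the dashed line marks a ratio of 1. Deprived libraries lie between 1.00 and 1.01 and replete libraries between 0.863 and 0.914.

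The window hides 2 stretches that differed. The 60 outermost peaks had a median deprived level of 280 normalised reads (quartiles 194 and 388, range 106 to 638). The next peaks inward were weaker, with medians of 228 for the 58 peaks up to 10 kb, 230 for the 88 peaks from 10 to 20 kb and 246 for the 73 peaks from 20 to 30 kb. From 30 to 40 kb the median was 287 (74 peaks) and from 40 to 50 kb it was 281 (75 peaks). Farther in, the class medians kept within a narrow range, from 269 normalised reads at 50 to 100 kb and 275 at 100 to 150 kb to 262 beyond 300 kb.

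Up to 20 kb the lower level was visible in each deprived library. In the class up to 10 kb the library medians were 240, 221 and 217 normalised reads, and in the class from 10 to 20 kb they were 238, 216 and 243. From 20 to 30 kb they were 263, 220 and 260, where libraries A and C lay close to their medians beyond 300 kb. In the class from 40 to 50 kb they were 300, 265 and 279, and beyond 300 kb they were 271, 248 and 265. Classes of 58 to 88 peaks have wide quartiles, for example 183 to 324 up to 10 kb, and distance and deprived level were weakly related among end peaks (Spearman's rho 0.089 across 428 peaks from the same libraries, a description only).

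A window of 25000 bp takes in the outermost peaks together with most of the weaker peaks behind them. Its 243 peaks had a median deprived level of 239 normalised reads, against 265 for all other peaks. The ratio of mean reads per peak was 0.969, 0.968 and 0.970 for the deprived libraries. For the replete ones it was 0.869, 0.847 and 0.976. It was below 1 in 6 of 6 libraries, and the exact sign-flip permutation p of 0.031 is the smallest that 6 libraries can give. The 6 libraries share the same peak positions, so this p reflects agreement between libraries and does not measure how peaks vary. The 185 end peaks from 25000 to 50000 bp had a median deprived level of 276 normalised reads and ratios to all peaks beyond 50000 bp of 1.06, 1.04 and 1.05 in deprived cells and 0.946, 0.888 and 0.839 in replete cells.

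**Figure D4:**
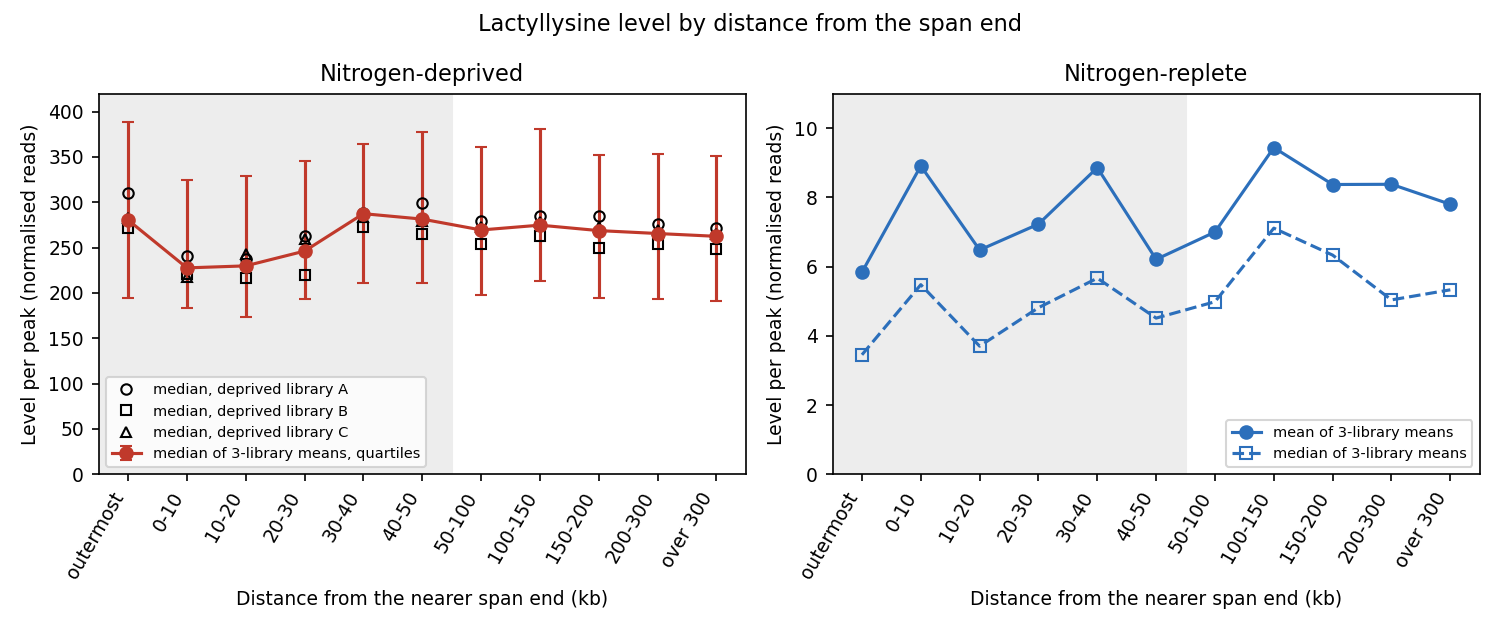
Level per peak (normalised reads) by distance from the nearer span end (kb), in deprived cells at the left (median over peaks of the mean of 3 libraries, bars to the quartiles, open symbols for the median in each library) and in replete cells at the right (mean and median over peaks of the mean of 3 libraries, on a lower scale). Grey marks the windows; in deprived cells the outermost peaks have a median of 280, the next class 228, and the class from 30 to 40 kb 287.

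Spacing and level were also set side by side, since isolated peaks tended to carry higher deprived levels. Among the 425 end peaks higher in deprived cells, 49.9% fell in the most isolated of 4 equal classes of higher peaks by distance to the nearest listed peak, against 22.8% of interior peaks. The 60 outermost peaks have a listed neighbour on 1 side only, which by construction moves end peaks toward the isolated class. How far this raises the share was not tested. Within that class end peaks had a median of 272 normalised reads and interior peaks 289. In the class with the nearest neighbours the medians were 222 for 61 end peaks and 243 for 1272 interior peaks. In the middle classes they were 266 and 258 for end peaks and 267 and 274 for interior peaks. End peaks thus had the lower median in each of the 4 classes, by a ratio of 0.914 to 0.993. Levels of neighbouring end peaks showed next to no relation (rho -0.071 over 368 pairs, a description).

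Nearly all end peaks gained the mark on nitrogen deprivation, as listed peaks did everywhere. The authors' deposited table gives a higher deprived level for 425 of the 428 end peaks and a lower one for 3, where 99.2% of all listed peaks were higher and 0.819% lower. The list holds only peaks that passed the authors' test, so these shares sit at the background and describe the list. The end peaks had a median log2 fold change of 5.75 (quartiles 4.53 and 9.30), against 5.46 for interior peaks (quartiles 4.38 and 8.25) in the authors' deposited table. In limma on log2 of normalised reads plus 1, with Benjamini-Hochberg adjustment over all 5375 peaks, 425 end peaks were called higher and 2 lower, against a background of 98.9% higher and 0.763% lower calls over all listed peaks. With a pseudocount of 0.1 the calls were 400 higher and 2 lower, against a background of 92.2% and 0.577%. The lowest deprived library exceeded the highest replete one in 425 of 428 end peaks, where this held for 99.2% of all listed peaks.

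These calls depend on the scaling between libraries. When each library was given the same total over the listed peaks, which moved the median log2 fold change of all peaks in limma to 4.31, against 6.57 under the authors' scaling, 124 end peaks were called higher and 17 lower, near the background of 24.8% and 3.93%. With library medians set equal (median log2 fold change of all peaks -0.34), limma called 0 end peaks higher and 3 lower, beside a background of 0% and 0.8%. Replete libraries B and C had medians of 0 reads, so this scaling set their empty peaks level with a typical deprived peak. The lack of higher calls was thus built into it, and no conclusion is drawn from it. At an unadjusted p under 0.05 the limma counts among end peaks were 6 higher and 52 lower, where 818 of all 5375 listed peaks reached that p in either direction, so nothing is read from them about end peaks. The authors' deposited table has 425 higher.

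End peaks had somewhat larger folds in the authors' deposited table and were more often empty in replete cells. Whether the second accounts for the first was not tested. In limma, end and interior peaks had close median log2 fold changes, 6.62 and 6.57. All 3 replete libraries stood at 0 reads in 113 end peaks, or 26.4%, against 21.5% of interior peaks. Replete library A was at 0 in 34.3% of end peaks and 29.8% of interior peaks, library B in 68.7% and 65.9%, and library C in 77.8% and 74.8%. Of the outermost peaks 19 of 60 (31.7%) were empty in all replete libraries. With the replete level set to a floor of 3 reads in all, a mean of 0.969 normalised reads, those 113 end peaks were at least 108-fold higher on deprivation, and the largest bound was 698-fold (median 249-fold, authors' scaling, counting error only). The other 312 higher end peaks, with reads in at least 1 replete library, had deprived over replete means in a median ratio of 39.45 (quartiles 20.8 and 79.5), and 3840 such interior peaks had a median of 35.9 (quartiles 20.2 and 76.2).

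Deprived libraries varied to a similar degree at ends and in the interior. Among deprived libraries the coefficient of variation per higher peak had a median of 8.60% for end peaks (quartiles 5.73% and 13.1%) and 9.04% for interior peaks. Reads in all 3 replete libraries were found in 43 of 428 end peaks and 590 of 4947 interior peaks. Low-coordinate ends (216 peaks) had a median deprived level of 249 normalised reads and high-coordinate ends (212 peaks) of 257.

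Single ends hold few peaks, and their medians are given as a description. The median deprived level at an end lay above the interior median of its own chromosome at 28 of 60 ends, and with both ends of a chromosome pooled on 12 of 30 chromosomes. The high-coordinate end of chromosome 29 had the highest median, with 444, 374 and 390 normalised reads in the deprived libraries over 7 peaks. Next was the low-coordinate end of chromosome 28, with 421, 359 and 360 over 5 peaks. The lowest medians were found at the high-coordinate end of chromosome 1 (169, 152 and 161 over 7 peaks) and the low-coordinate end of chromosome 16 (180, 136 and 164 over 7 peaks). The 3 libraries at these 4 ends did not overlap between the high and the low pair, which were picked by rank from these same values.

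The end of chromosome 1 was evenly weak: its 7 peaks ran from 136 to 256 normalised reads in deprived cells, below the interior median of 266 on that chromosome. The low end of chromosome 16 was mixed, since its outermost peak reached 419 normalised reads while 4 of the 6 peaks behind it stayed between 109 and 158.

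The single peaks with adjusted p-values below were picked by rank, level or listed direction from these same values. They come from a list that had already passed the authors' test, so these p-values are descriptions only. The peak with the most lactyllysine in deprived cells in the whole list was an end peak. It lies on chromosome 6 from 1282626 to 1283026, 8208 bp from the high-coordinate span end, and held 1097, 1020 and 897 deprived reads against 8, 0 and 7 replete reads. The groups were far apart. In limma its log2 fold change was 7.98 ± 0.94 (SE, adjusted p = 0.0011). Its neighbours were ordinary: the outermost peak at that end, 8008 bp farther out, had 356, 320 and 318 deprived reads and 0 in each replete library, and the peak 2764 bp inward had 320, 284 and 217 deprived reads and 0, 18 and 0 replete reads.

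The largest rise in the list was also at an end, with a log2 value of 11.49 in the authors' deposited table. This peak on chromosome 9, from 1144778 to 1145178 and 44476 bp from the high-coordinate end, had 737, 594 and 614 reads in the deprived and 0 in every replete library. It ranked 8 among all peaks by deprived level. The second-largest rise among end peaks was at the outermost peak of chromosome 29, from 580371 to 580771, with 656, 618 and 559 deprived reads and 0 in each replete library (11.41 on the log2 scale in the authors' deposited table). It was the strongest of the 60 outermost peaks. Under the authors' scaling the peak on chromosome 9 was at least 698-fold and that on chromosome 29 at least 659-fold higher on deprivation, by the same floor.

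The 3 end peaks listed as lower on nitrogen deprivation in the authors' deposited table each stood between peaks listed as higher. Since 99.2% of all listed peaks were listed as higher, such neighbours are the usual case. On chromosome 8 the peak from 9186 to 9586 lies 1553 bp from the low-coordinate end and had 15, 9 and 28 deprived reads against 172, 116 and 48 replete reads. The groups did not overlap, and the log2 fold change in limma was -2.46 ± 0.60 (SE, adjusted p = 0.011). The outermost peak, 1353 bp away, went the opposite way with 417, 431 and 369 deprived reads and 12, 0 and 0 replete reads.

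On chromosome 20 the peak from 13795 to 14195, 13172 bp from the low-coordinate end, had 0, 0 and 9 deprived reads against 160, 102 and 109 replete reads. It had the highest replete level of all end peaks, 119 normalised reads, and the lowest deprived level, 3.39. The fall in limma was -5.72 ± 1.07 on the log2 scale (SE, adjusted p = 0.0051). Its neighbours 9381 bp before and 3163 bp after it had 351 and 175 normalised reads in deprived cells and 6.53 and 8.92 in replete cells.

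On chromosome 9 the peak from 1153550 to 1153950 had 18, 32 and 0 deprived reads against 123, 119 and 51 replete reads. It did not pass the test in limma (log2 fold change -3.36 ± 1.45, SE, adjusted p = 0.069), although the authors' deposited table gives it an FDR of 0.022. Deprived library C was at 0, and the groups did not overlap. Its neighbour 8772 bp farther in is the peak with the largest rise described above, so a peak listed as lower and the one with the largest rise lie side by side at this end.

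**Figure D5:**
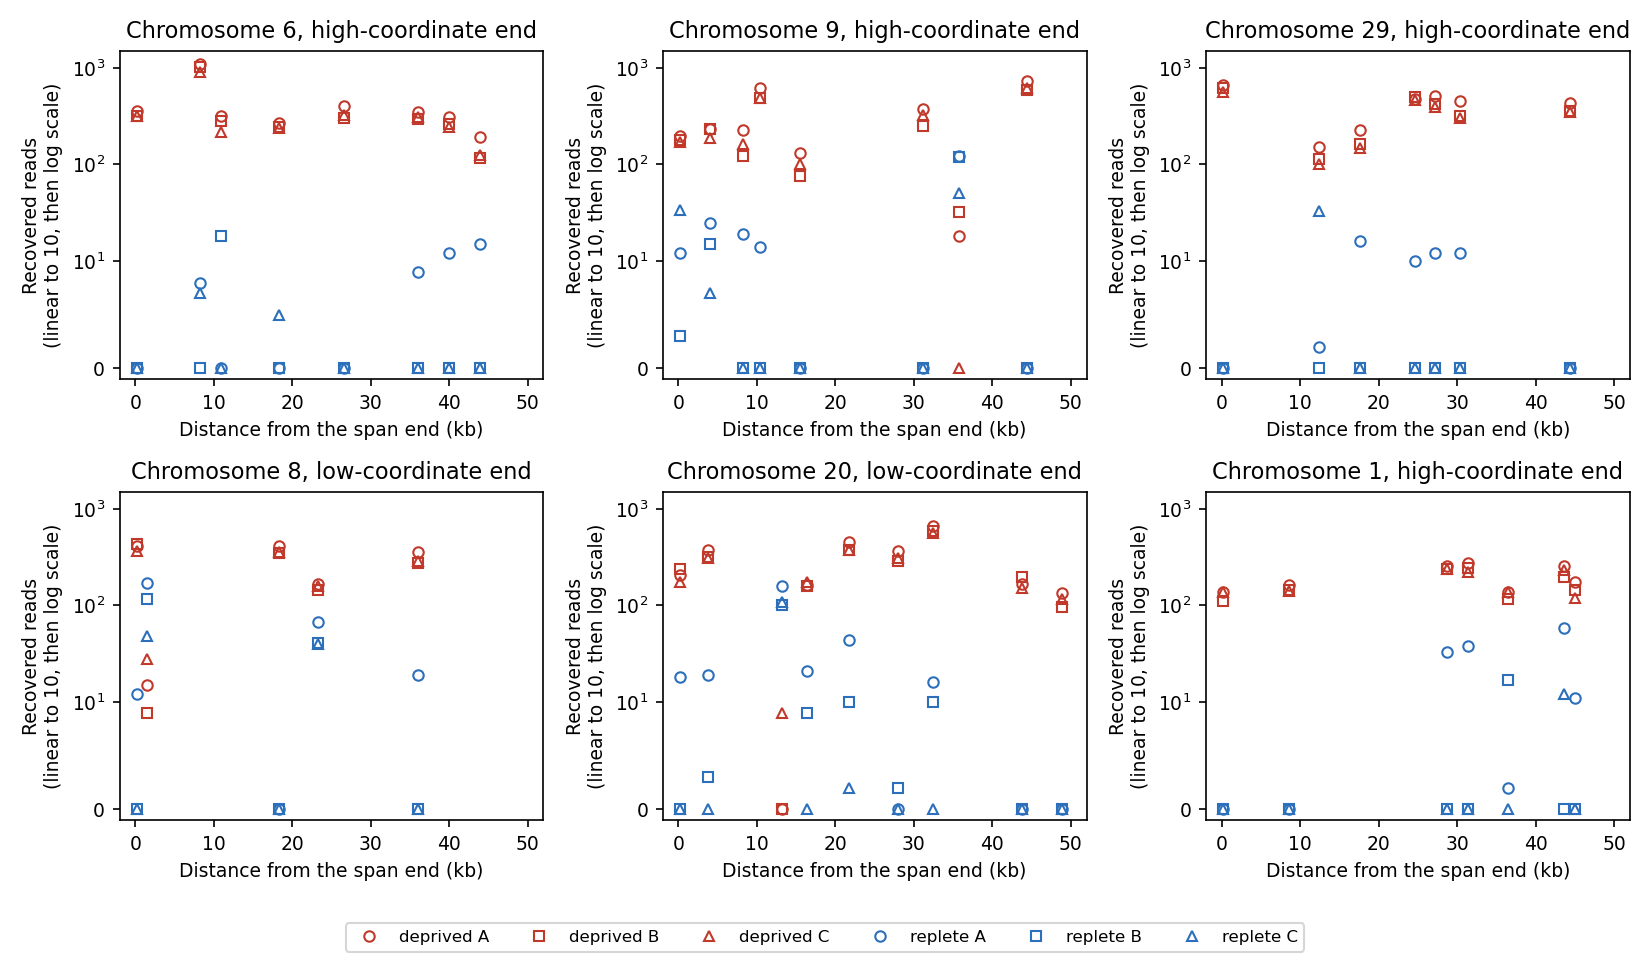
Recovered reads (linear to 10, then log scale) of every peak at 6 ends against the distance from the span end (kb), in 3 deprived libraries (red) and 3 replete libraries (blue). The strongest peak stands out on chromosome 6, blue symbols lie above red ones at 1 peak each on chromosomes 9, 8 and 20, and the high-coordinate end of chromosome 1 stays below 300 reads throughout.

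A further 5 end peaks, picked after their values were seen, were higher in deprived cells yet kept more than 30 normalised reads in replete cells. They are 1.18% of higher end peaks, against 1.47% of higher interior peaks. The highest of these replete levels was again at the low-coordinate end of chromosome 8, in the peak starting at 30986, with 167, 145 and 160 deprived reads against 68, 41 and 40 replete reads. In limma it rose by 1.80 ± 0.24 on the log2 scale (SE, adjusted p = 0.0018). Another 2 lie next to each other at the low-coordinate end of chromosome 30, starting at 137856 and 144639, with 116, 139 and 133 deprived reads against 61, 32 and 48 replete reads in the outer peak and 217, 223 and 161 against 57, 34 and 28 in the inner one. This is 1 of the 3 ends whose first peak lies beyond position 40000. The last 2 are outermost peaks, at the low-coordinate end of chromosome 10 (429, 355 and 311 deprived reads, 42, 42 and 26 replete reads) and at the high-coordinate end of chromosome 7 (500, 395 and 384 deprived reads, 40, 34 and 40 replete reads).

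Among end peaks higher in deprived cells the weakest, also picked after its value was seen, lay on chromosome 13 from 31001 to 31401. It had 121, 38 and 83 deprived reads against 14, 0 and 0 replete reads, with a log2 fold change in limma of 5.02 ± 1.21 (SE, adjusted p = 0.011). Deprived library B held fewer reads there than the other deprived libraries, and still more than any replete library.

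The edge of the window at 50000 bp is a convention. The peaks just inside it, at 49968 and 49913 bp from the end, had deprived levels of 491 and 498 normalised reads, and those just outside, at 50031 and 50249 bp, had 374 and 151. Replete levels were 11.5 and 6.02 just inside and 11.3 and 0 just outside.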

How the data were processed

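The lactyllysine ChIP-seq libraries used were 3 deprived and 3 replete ones. Per the submitters' processing notes, Trim Galore, BWA, Picard, deepTools and MACS2 were applied; versions, genome build, differential test and any control subtraction: not given in the sources used here. Deposited by the authors was 1 table of peaks with log2 group means, a log2 fold change, a p-value and an FDR per peak, and no counts per library. A count test had been planned and could not be run on these values. Each linear group mean was instead resolved into whole reads of 3 libraries, within a relative tolerance of 4e-13; every mean above 0 had 1 solution, and 0 of 500 decoy values per group had any. Of the 1428 replete means listed at 0 on the log2 scale, 1179 came out as 0 reads in all 3 libraries and the rest as low reads.

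Reads times the authors' scaling gave normalised reads, and limma 3.58.1 in R 4.3.3 was fitted to log2 of these plus 1 over all 5375 peaks, with Benjamini-Hochberg adjustment and a threshold of 0.05. On simulated data (5375 peaks) it called 100 of 100 peaks changed 2-fold, 100 of 100 changed 4-fold and 17 unchanged ones. In the real data, peaks with empty replete libraries could have a wide SE. It was 1.21 on the log2 scale for the peak from 31001 on chromosome 13, with 14, 0 and 0 replete reads. Recovery of a 2-fold or 4-fold change at such peaks, or at others with few replete reads, was not tested. How often unchanged peaks with so few reads are called was not tested either. Ratios of mean reads per peak were formed within each library and tested by exact permutation. Python 3.11.15, numpy 2.4.6, pandas 2.3.3, scipy 1.17.1 and matplotlib 3.10.9 were used. The end peaks and all lists were chosen with earlier results of these data known. Peaks were named by rank: the 3 highest and 3 lowest deprived levels, the 3 highest replete levels, the 2 largest folds per direction, every lower peak, the ends with the most, fewest, strongest and weakest peaks, the strongest outermost peak, and those beside the 50000 bp limit. Alternatives covered window width, outermost peaks, low values, scaling, pseudocount, variance trend and each library left out. No gene annotation or sequence of the table's build was used here. The floors cover counting error only, while the SD and SE values rest on the spread between libraries.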

Additional observations from a re-analysis of the deposited data

Results flagged for a closer look

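The ratio of mean reads per end peak to mean reads per interior peak was above 1 in each of the 3 deprived libraries and below 1 in each of the 3 replete libraries. The deprived direction turned in several alternatives: the log2 ratio was -0.045 with a window of 25000 bp, -0.013 without the outermost peaks, -0.0055 as the median over chromosomes and -0.0013 without the strongest end peak. Over peaks listed as higher, deprived library B had a ratio of 0.9995. The difference, deprived minus replete, was 0.17 on the log2 scale, and the exact permutation p of 0.1 is the smallest that 3 against 3 libraries can give, so a difference between conditions was not shown. The deprived mean was 0.0079 and the replete mean -0.16. What part the low number of replete reads has in this was not tested.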

How the results depend on the processing

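Of 79 alternative values, 62 left the reported direction and call as they were, or stayed close to the reported value. Among these, 14 concern the difference between conditions, whose p cannot go below 0.1, so only its direction could change. Many alternatives share most of their libraries and peaks, so the count does not measure independent support. The log2 ratio of end to interior level in deprived libraries turned negative with a window of 25000 bp (-0.045), without the outermost peaks (-0.013), as the median over chromosomes (-0.0055) and without the strongest end peak (-0.0013). The replete ratio was -0.16 with the 25000 bp window and -0.15 without the outermost peaks. In both alternatives all 6 libraries lay below 1, and the sign-flip p over the 6 libraries together was the smallest they allow, while the 3 replete libraries alone cannot go below 0.25. The difference in median deprived level, -9.38 normalised reads as reported, was -26.5 at 25000 bp, -4.05 at 100000 bp and 9.08 once peaks below the lower quartile of level were left out. The spacing difference, 1374.5 bp as reported, was 608.5 bp at 25000 bp and 2176.5 bp without those low peaks. The share of end peaks that limma called higher was 28.97% with equal reads and 0% with equal medians. The second value was built into the scaling, as replete libraries B and C had medians of 0 reads. The share called lower was 0.823% at 25000 bp, 0.234% at 100000 bp, 0% without low peaks and 3.97% with equal reads. The cause of these shifts was not tested. Leaving out 1 library at a time gave differences between conditions of 0.15 to 0.19, deprived ratios of 0.0035 to 0.011, replete ratios of -0.18 to -0.14, and shares called higher of 91.4% to 98.8% and lower of 0.467% to 0.701%. Leaving out the strongest peak, leaving out the 3 low-coordinate ends beyond position 40000 and counting straddling pairs as end pairs were chosen after seeing the data. No paired analysis was possible because the resolved libraries carry no replicate numbers. The list holds only peaks that passed the authors' test, the span ends only approximate the chromosome ends, and replete levels rest on few reads.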
